A study of Mus musculus with 4 samples.

Results

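The genes described here encode 10 hormones of the hypothalamus and the pituitary, measured in the brains of Bcas1 knockout and wild-type mice. All probe sets annotated to exactly one of Gh, Prl, Pomc, Cga, Lhb, Avp, Oxt, Trh, Hcrt or Pmch were taken, which gave 14 of the 45037 probe sets analysed and 10 of the 18193 genes they name singly. The pituitary genes Gh, Prl, Pomc, Cga and Lhb had 9 of these probe sets, with 4 for Gh, 2 for Pomc and 1 for each of the others. The hypothalamic genes Avp, Oxt, Trh, Hcrt and Pmch had 1 probe set each. The 10 genes lie on 8 chromosomes, with Avp and Oxt on chromosome 2, Gh and Hcrt on 11, Prl on 13, Pomc on 12, Cga on 4, Lhb on 7, Trh on 6 and Pmch on 10. No value was used to choose them, although the set was proposed with results of these arrays known.

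The knockout group held 2 BCAS1 KO (-/-) mice and the control group 2 wild-type (+/+) mice, with 1 Affymetrix array for each mouse. All 4 were males of the C57BL/6 background, 8 to 9 weeks old, bred from heterozygous BCAS1 (+/-) parents, and received no treatment that the labels name. How the Bcas1 allele was disrupted, and whether the animals were littermates, is not stated in what was available. The labels call the tissue brain and, in the descriptions, cerebrum, and they do not say whether the hypothalamus, the pituitary stalk or the gland was kept during dissection. Values are RMA levels on a log2 scale, so a difference of 1 is a 2-fold difference. Array medians lay between 6.49 and 6.51. The brightest Bcas1 probe set measured 11.05 and 10.75 in the knockout mice, against 12.17 and 12.21 in the wild-type mice, while its 2 dim probe sets differed in the opposite direction by 0.77 and 0.64. In limma, fitted over all probe sets, 2 passed the Benjamini-Hochberg adjusted threshold of 0.05, both lower in the knockout. The probe sets called made up 0.00444% of those tested, and 0 of the 14 hormone probe sets were among them.

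The pituitary lies below the hypothalamus and is joined to it by a thin stalk. Its anterior lobe holds separate cell types that make growth hormone, prolactin, the gonadotropins, thyrotropin and corticotropin. Hypothalamic neurons control these cells through peptides released into the portal blood. Other hypothalamic axons reach the posterior lobe and release peptides there. Hormone transcripts are among the most abundant mRNAs of the cells that make them. Gh, Prl, Cga and Lhb are mainly transcribed in the anterior lobe. Pomc is transcribed in the gland and also in neurons of the arcuate nucleus, so it belongs to both sites. Avp, Oxt, Trh, Hcrt and Pmch are transcribed in hypothalamic neurons. In tissue RNA, fewer cells of a type and less RNA per cell cannot be told apart.

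Gh, which encodes growth hormone, was higher in both knockout mice than in both wild-type mice by every one of its 4 probe sets. The brightest, 1460310_a_at, measured 6.88 and 7.53 in the knockout mice, against 6.44 and 6.55 in the wild-type mice. The probe set 1437522_x_at measured 4.82 and 7.03 in the knockout mice, against 4.05 and 4.25 in the wild-type mice. The genotypes did not overlap on either, and most of the distance lay in the second knockout mouse. The probe set 1460613_x_at measured 4.71 and 6.71 in the knockout mice, against 3.44 and 3.96 in the wild-type mice. The probe set 1456595_x_at measured 4.45 and 6.37 in the knockout mice, against 3.47 and 4.04 in the wild-type mice. The order of the arrays was the same on all 4, from the first wild-type mouse through the second wild-type mouse and the first knockout mouse to the second knockout mouse.

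The mean Gh difference was 0.71 (SE 0.22) on the brightest probe set, a 1.64-fold level. Its 95% confidence interval in limma ran from 0.12 to 1.30. The differences on the other 3 were 1.78, 2.01 and 1.66, with SEs of 0.72, 0.67 and 0.65. The interval of 1460613_x_at ran from 0.25 to 3.77, and those of 1437522_x_at and 1456595_x_at included 0. Each of the 4 had an adjusted p of 1 in limma, so Gh did not pass the test. Before adjustment, p was under 0.05 for 2 of the 14 hormone probe sets, both of Gh and both higher in the knockout, against 3.42% of all probe sets in either direction and 1.82% in that direction. Among the 45037 probe sets ordered by the size of the increase in the knockout, the 4 of Gh stood at ranks 6, 8, 11 and 28. All 4 were at least 1.5-fold apart without overlap of the genotypes, a condition that 19 probe sets met (0.0422%), and 3 of them were among the 7 that were at least 2-fold apart (0.0155%).

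The excess of Gh in the first knockout mouse was the smaller part. Against the wild-type mean, that mouse stood 0.39 higher on 1460310_a_at and 0.67, 1.01 and 0.70 higher on 1437522_x_at, 1460613_x_at and 1456595_x_at. The second knockout mouse stood 1.04 higher on the brightest probe set and 2.88, 3.01 and 2.62 higher on the other 3, the largest of them an 8.06-fold level. With the second knockout mouse left out, the remaining knockout mouse exceeded both wild-type mice on 4 of the 14 hormone probe sets, all of Gh. Over all probe sets the first knockout mouse exceeded both wild-type mice in 29.4%, a share close to 4 in 14. The dim probe sets gave the larger differences, and all 3 carry the Affymetrix suffix _x, which marks probes that may also match other transcripts. Their levels ranked at percentiles 20.7 to 27.2 of all probe sets, against 55.2 for the brightest, and no detection calls were available to tell a weak signal from none.

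**Figure D1:**
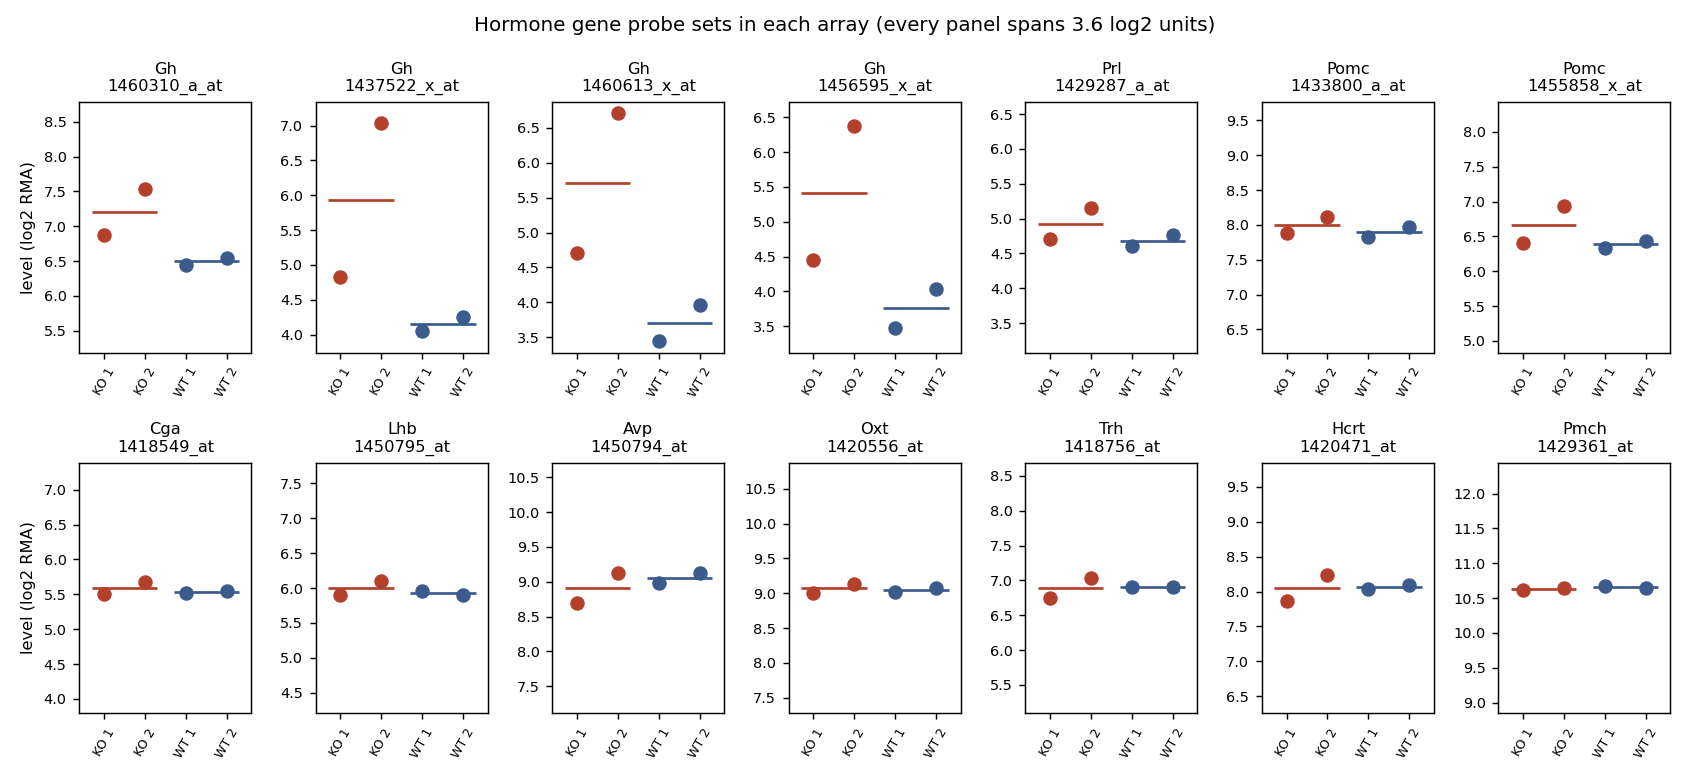
RMA levels (log2) of the 14 hormone gene probe sets in each array, knockout (KO, red) left of wild type (WT, blue), with lines at the mean of the 2 mice of a genotype and the same axis span in every panel. The 4 Gh panels show both knockout mice above both wild-type mice and the second knockout mouse highest, and in the other 10 panels the genotypes overlap.

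Prl, the gene of prolactin, comes from the same ancestral hormone family as Gh, and the cells that make both hormones share a lineage. Its single probe set measured 4.70 and 5.15 in the knockout mice, against 4.60 and 4.76 in the wild-type mice. The first knockout mouse lay between the wild-type mice and the second lay above them. The difference was 0.25 (SE 0.17, 95% confidence interval -0.20 to 0.69, adjusted p of 1 in limma). The probe set was dim, at the percentile 23.7 of all levels.

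The sequence upstream of Prl is shown because the POU-domain factor Pit-1 acts on it and on Gh in somatolactotroph cells. Of the 10 genes, 9, all but Gh, matched the RefSeq promoter table of build GRCm38.p6. The 250 bases before the Prl start, at chr13:27057320-27057569 on the plus strand, are printed with matches to ATGNATA, a core of Pit-1 sites, in capitals.
Prl: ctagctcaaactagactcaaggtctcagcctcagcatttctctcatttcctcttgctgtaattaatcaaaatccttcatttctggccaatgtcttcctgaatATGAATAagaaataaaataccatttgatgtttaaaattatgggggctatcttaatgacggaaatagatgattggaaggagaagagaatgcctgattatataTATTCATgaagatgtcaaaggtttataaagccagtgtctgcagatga
The motif was searched on both strands and matched 2 times, beginning 148 and 47 bases before the start, the second as the reverse complement. No match was found in the windows of the other 8 genes that had an entry. Of 32851 such windows, 7.92% held at least 1 match. A match is a description of the letters and was not tested as a binding site.

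Pomc, the precursor of corticotropin, melanocyte-stimulating hormones and beta-endorphin, had a bright probe set and a dimmer one that did not give the same size of difference. The bright one, 1433800_a_at, measured 7.89 and 8.11 in the knockout mice, against 7.82 and 7.97 in the wild-type mice. The dimmer one, 1455858_x_at, measured 6.41 and 6.93 in the knockout mice, against 6.33 and 6.44 in the wild-type mice. On both, the first knockout mouse lay between the wild-type mice. The differences were 0.11 (SE 0.11) and 0.29 (SE 0.19), and both confidence intervals included 0. The _x probe set thus gave the larger value here too.

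Cga and Lhb, which encode the subunit shared by the glycoprotein hormones and the luteinizing hormone beta chain, had overlapping genotypes. Cga measured 5.50 and 5.68 in the knockout mice, against 5.52 and 5.55 in the wild-type mice. Lhb measured 5.90 and 6.10 in the knockout mice, against 5.96 and 5.90 in the wild-type mice. The second knockout mouse was the highest of the 4 for each gene. The difference of Cga was 0.055 with a confidence interval of -0.18 to 0.29, and that of Lhb was 0.070 with an interval of -0.18 to 0.32. A 2-fold difference of signal, 1 on this scale, lies outside these intervals. Both probe sets measured below the array medians and no detection calls were available. The intervals therefore describe the signal and do not bound a difference in transcript amount. Cga is normally one of the abundant transcripts of the gland, and its probe set stood at percentile 35.4 here.

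The anterior pituitary has further marker genes, of which 7 of 10 listed were measured and 0 passed the test in either direction. Their median difference was -0.010, against 0.0050 over the 18193 genes represented by their brightest probe sets. Levels ran from 3.08 to 6.49. Tbx19, the transcription factor of corticotropes, measured 5.67 and 5.87 in the knockout mice, against 5.61 and 5.57 in the wild-type mice. It was the only one of the 7 with both knockout mice above both wild-type mice, against 13.9% of all probe sets, a share close to 1 in 7. Over all genes at their brightest probe set this held for 2816 of 18193. Tshb, the beta chain of thyrotropin, measured 5.54 and 5.44 in the knockout mice, against 5.50 and 5.60 in the wild-type mice. Ghrhr, the receptor through which growth hormone cells are stimulated, measured 6.41 and 6.30 in the knockout mice, against 6.41 and 6.49 in the wild-type mice. Pitx1, a transcription factor of the early gland, differed by 0.065. The mean deviation of the 7 genes from the wild-type mean was 0.021 and 0.014 in the knockout mice, against -0.039 and 0.039 in the wild-type mice. In this mean the second knockout mouse, highest for Gh, lay between the wild-type mice. By gene, that mouse was the highest for 2 of the 7, Tbx19 and Pitx1, and the lowest for others, Tshb and Ghrhr included. No level was above the array medians, and no detection calls were available to tell such signals from none.

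The hypothalamic genes showed the opposite sign from the pituitary genes in 4 of 5 cases, with small values, and Trh turned positive (0.00063) after repeated quantile normalization. Avp encodes arginine vasopressin, which acts on the kidney to retain water. It measured 8.69 and 9.13 in the knockout mice, against 8.98 and 9.12 in the wild-type mice. Its difference was -0.14 (SE 0.16, 95% confidence interval -0.57 to 0.29), and the low first knockout mouse set its sign, since the second stood 0.080 above the wild-type mean. Oxt encodes oxytocin, the peptide of uterine contraction and milk ejection. It measured 9.01 and 9.14 in the knockout mice, against 9.02 and 9.07 in the wild-type mice. The difference was 0.030 (SE 0.082, interval -0.18 to 0.24).

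Avp and Oxt lie next to each other on mouse chromosome 2 in opposite orientation, so the bases before both starts are shown. Their 4 arrays ran in the same order, but so did those of Trh, Hcrt and Cga on other chromosomes. The Oxt window is chr2:130575919-130576168 on the plus strand, with the nuclear receptor half-site AGGTCA, on either strand, in capitals. The Avp window is chr2:130582589-130582838 on the minus strand, with CATAAA, which resembles a TATA box, in capitals.
Oxt: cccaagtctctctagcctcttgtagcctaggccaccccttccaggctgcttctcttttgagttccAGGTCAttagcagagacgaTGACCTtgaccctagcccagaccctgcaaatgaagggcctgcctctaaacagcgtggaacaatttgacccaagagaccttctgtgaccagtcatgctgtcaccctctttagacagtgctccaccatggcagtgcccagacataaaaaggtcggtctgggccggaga
Avp: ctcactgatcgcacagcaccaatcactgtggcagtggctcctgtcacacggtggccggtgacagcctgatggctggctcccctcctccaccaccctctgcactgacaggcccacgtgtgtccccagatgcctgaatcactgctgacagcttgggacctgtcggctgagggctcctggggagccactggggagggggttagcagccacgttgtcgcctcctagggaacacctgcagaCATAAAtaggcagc
AGGTCA matched 2 times in the Oxt window, beginning 185 and 166 bases before the start, and no match was found in the Avp window. CATAAA matched 1 time in each, beginning 27 bases before the Oxt start and 14 bases before the Avp start. Over all 32851 windows, 14% held AGGTCA and 10.8% held CATAAA on either strand. In the rat, AGGTCA-type elements upstream of Oxt are known to bind nuclear receptors, but no binding was measured here.

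Trh, Hcrt and Pmch come from other hypothalamic neurons. Trh encodes the peptide that drives thyrotropin release, and it measured 6.74 and 7.04 in the knockout mice, against 6.90 and 6.91 in the wild-type mice. Hcrt encodes the orexins, which keep animals awake, and it measured 7.86 and 8.24 in the knockout mice, against 8.03 and 8.10 in the wild-type mice. In both genes the knockout mice lay on either side of the wild-type mice, and the difference of each was -0.015. The confidence interval was -0.33 to 0.30 for Trh and -0.39 to 0.36 for Hcrt. Pmch, which encodes melanin-concentrating hormone of the lateral hypothalamus, measured 10.62 and 10.65 in the knockout mice, against 10.67 and 10.64 in the wild-type mice. Its 4 values spanned 0.050, and its difference of -0.020 had the narrowest interval of the set, -0.20 to 0.16. All 5 hypothalamic genes had an adjusted p of 1 in limma.

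**Figure D2:**
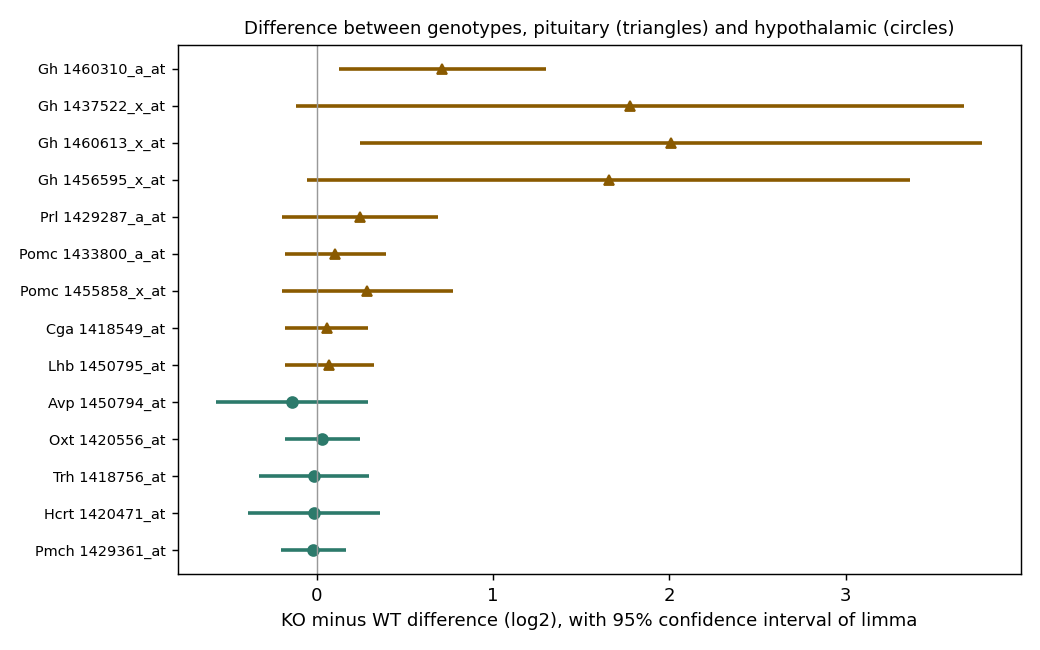
Knockout minus wild-type difference (log2) of each hormone probe set with its 95% confidence interval from limma, pituitary genes as triangles and hypothalamic genes as circles. The interval lies above 0 for 2 Gh probe sets, 1460310_a_at and 1460613_x_at, and includes 0 for the other 12.

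The array of the second knockout mouse was the highest for 13 of the 14 hormone probe sets, Pmch being the exception, while it was the highest for 32.3% of all probe sets. It exceeded both wild-type mice for the same 13, against 38.6% of all. The mean difference was above 0 for 10 of the 14, the 9 pituitary ones and Oxt, against 48.1%. By gene, at the brightest probe set, it was above 0 for 5 of 5 pituitary and 1 of 5 hypothalamic genes. Over all genes this held for 9403 of 18193. The first knockout mouse was the lowest of the 4 arrays for 6 probe sets, those of the 5 hypothalamic genes and Cga, against 30.6% of all probe sets. The exact order of first knockout, first wild-type, second wild-type and second knockout mouse, from low to high, held for Cga, Avp, Oxt, Trh and Hcrt, which is 5 of 14, against 7.3% of all probe sets. The second knockout mouse exceeded the first by at least 0.2 for 11 of the 14, against 16.7% of all probe sets, and the second wild-type mouse exceeded the first by that much for 3, against 8.76%. The distance between the 2 knockout mice was wider than the difference between genotypes for 12 of the 14 probe sets, all but 1460310_a_at and 1460613_x_at of Gh. Gene values on one array are not independent of each other. The 4 probe sets of Gh and the 2 of Pomc were each counted, and no test was made of these counts.

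Averaged over the 5 genes of a group, with each gene as the mean of its probe sets, pituitary genes deviated from the wild-type mean by 0.13 and 0.71 in the knockout mice, against -0.061 and 0.061 in the wild-type mice. Hypothalamic genes deviated by -0.16 and 0.096 in the knockout mice, against -0.024 and 0.024 in the wild-type mice. The mean genotype difference was 0.42 for the pituitary genes and -0.032 for the hypothalamic genes. Gh contributed most of the first value, since its own mean difference was 1.54 and the other 4 pituitary genes averaged 0.14. That average without Gh was -0.0088 and 0.29 in the knockout mice, against -0.033 and 0.033 in the wild-type mice, and it was set by the second knockout mouse.

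Taking the pituitary mean minus the hypothalamic mean within each array removes what moved both groups together. This contrast was 0.29 and 0.61 in the knockout mice, against -0.037 and 0.037 in the wild-type mice. Without Gh it was 0.15 and 0.20 in the knockout mice, against -0.0085 and 0.0085 in the wild-type mice. Both knockout mice stood above both wild-type mice in each form. In the form without Gh, the pituitary mean of the first knockout mouse lay between those of the wild-type mice, and its hypothalamic mean lay below them. No p is given for these scores over chosen genes, and 2 against 2 arrays cannot give an exact two-sided permutation p below 0.333.

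**Figure D3:**
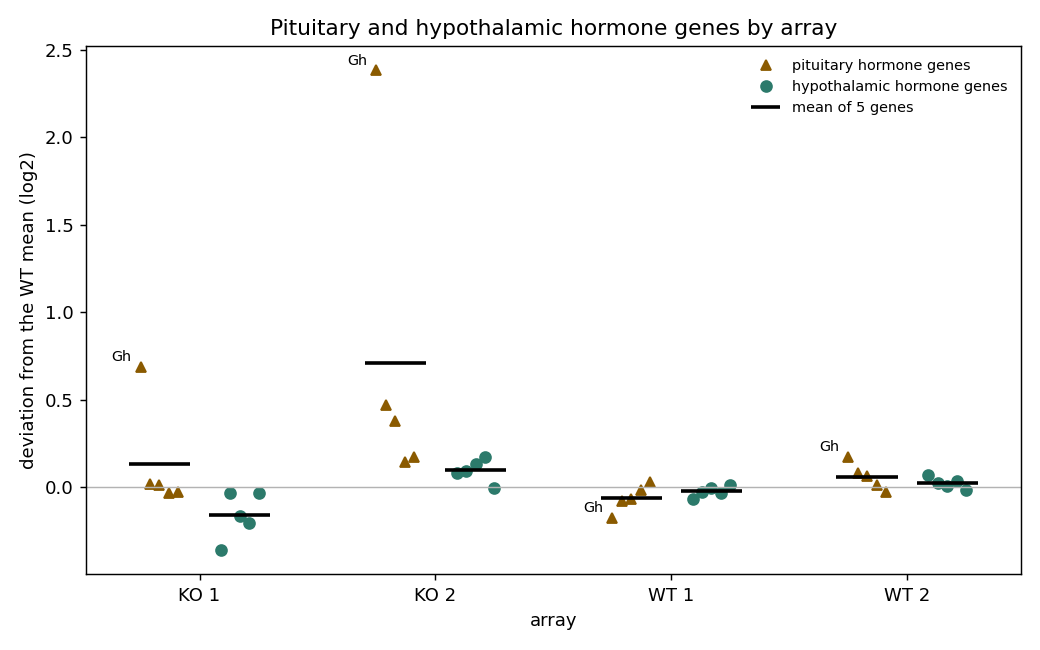
Deviation of each hormone gene from its wild-type mean (log2) in the knockout (KO) and wild-type (WT) arrays, pituitary genes as triangles, hypothalamic genes as circles and the mean of 5 genes as a black line. Gh stands at 0.69 and 2.39 in the knockout mice, and the other genes stay between -0.36 and 0.47.

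No further hypothalamic peptide gene passed the test. Of 12 further neuropeptide genes listed, 8 were measured, 0 passed the test in either direction and their median difference was 0. Tac2, which encodes neurokinin B, measured 7.94 and 7.92 in the knockout mice, against 8.10 and 8.13 in the wild-type mice, a difference of -0.19 (SE 0.069, adjusted p of 1 in limma). Ghrh, the releasing hormone for growth hormone, measured 4.95 and 4.90 in the knockout mice, against 4.55 and 4.89 in the wild-type mice. Its genotypes were separated by 0.01 only, and the probe set was dim. Npy, an appetite peptide, differed by -0.070, and Crh, the releasing hormone for corticotropin, by 0.025. Crh spread from 8.62 to 9.17 within the wild-type mice alone.

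Of 10 hypothalamic transcription factors, all were measured and 0 passed in either direction, with a median of 0.025. Otp, needed for vasopressin, oxytocin and thyrotropin-releasing neurons, measured 8.26 and 8.18 in the knockout mice, against 8.28 and 8.34 in the wild-type mice. It was the only one of the 10 with both knockout mice below both wild-type mice, against 13.2% of all probe sets, a share close to 1 in 10. Over all genes at their brightest probe set this held for 2335 of 18193. None of the 10 had both knockout mice above both wild-type mice, against 13.9% of all probe sets. Fezf1, Nkx2-1 and Hmx2 differed by 0.26, 0.19 and -0.11 from dim levels, with overlap in each.

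Receptors for the hormones were measured for 14 of 17 listed genes, and 0 passed in either direction, with a median of 0.010. The knockout mice stood above the wild-type mice for 4 of the 14 and below for 3, against 13.9% and 13.2% of all probe sets. Over all genes at their brightest probe set these counts were 2816 and 2335 of 18193. Mc2r, the corticotropin receptor of the adrenal, measured 4.12 and 4.13 in the knockout mice, against 4.50 and 4.30 in the wild-type mice, a dim probe set. Hcrtr2, one of the orexin receptors, measured 5.91 and 6.03 in the knockout mice, against 5.62 and 5.86 in the wild-type mice. Mchr1, the receptor for melanin-concentrating hormone, differed by 0.15 and Mc1r by -0.16.

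Enzymes and granule proteins that process prohormones were bright, up to 14.27, and 11 of 12 listed were measured. None of the 11 passed in limma, 7 differences were below 0, 2 were above and the other two were 0, and the median was -0.040. Scg5, the chaperone of a prohormone convertase, measured 12.02 and 12.09 in the knockout mice, against 12.17 and 12.22 in the wild-type mice. Chgb and Chga, chromogranins of secretory granules, differed by -0.060 and -0.045, and Qpct, which forms the cyclic N-terminus of peptides such as Trh, by 0.085. Genes of growth hormone signalling, all 9 measured, had 0 passing in either direction and a median of -0.0050. Stat5b, which carries the receptor signal, measured 8.33 and 8.34 in the knockout mice, against 8.42 in both wild-type mice. Its feedback targets Socs3 and Socs2 differed by 0.20 and -0.095 with overlap, and Stat5a by 0.14.

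Transcripts of other tissues were also high in the second knockout mouse. A list of 10 nasal mucosa and gland genes, written with these results known, had 6 measured members, of which 0 passed the test. Their mean level was 4.82 and 7.57 in the knockout mice, against 4.84 and 5.05 in the wild-type mice, so the excess was in the second knockout mouse. Obp2a, an odorant-binding protein, measured 4.42 and 6.46 in the knockout mice, against 4.33 and 4.28 in the wild-type mice. Bpifb3, of the same secretory tissue, differed by 1.02, and Obp1a and Bpifa1 by 2.41 and 2.02 with overlap of the genotypes. Of the 6 differences 5 were above 0, and Omp, the marker of olfactory neurons, named after its values were seen, measured 6.17 and 6.56 in the knockout mice, against 6.42 and 6.41 in the wild-type mice. Odorant-binding proteins are not known as pituitary products, and the part of such tissue in the Gh values was not tested. The first knockout mouse deviated by -0.13 from the wild-type mean for the nasal list. By gene, it lay above both wild-type mice for Obp2a and Bpifb3, between them for Obp1a and Bpifa1, and below both for Cyp2g1 and Omp.

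Of 8 neutrophil genes listed, all were measured and 0 passed the test, with a median of 0.16. All 8 differences were above 0, against 9403 of 18193 genes at their brightest probe set. For 5 genes both knockout mice were above both wild-type mice, against 2816 of 18193. In the other neutrophil genes the genotypes overlapped, with differences of 0.005 to 0.035. Their mean level was 5.48 and 5.81 in the knockout mice, against 5.24 and 5.20 in the wild-type mice. S100a9 measured 6.62 and 7.34 in the knockout mice, against 5.85 and 5.52 in the wild-type mice, and S100a8, its partner, 6.36 and 7.02 in the knockout mice, against 5.60 and 5.44 in the wild-type mice. Ngp, a granule protein, differed by 0.50 and Camp, an antimicrobial peptide, by 0.23. In the knockout mice this list and Gh thus had the same order. In the wild-type mice the orders differed, since the list mean was higher in the first mouse and every Gh probe set in the second. The relation of the list to Gh was not tested.

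Genes of the choroid plexus, a tissue within the brain ventricles, had a mean deviation of 0.0025 and 0.15 in the knockout mice, against -0.055 and 0.055 in the wild-type mice. All 10 were measured, 0 passed and the median was 0.075. Sostdc1, a secreted inhibitor, measured 7.66 and 7.68 in the knockout mice, against 7.41 and 7.43 in the wild-type mice. Folr1, the folate receptor of this epithelium, differed by 0.080 without overlap, and Tmem72 and Clic6 by 0.17 and 0.12 with overlap.

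**Figure D4:**
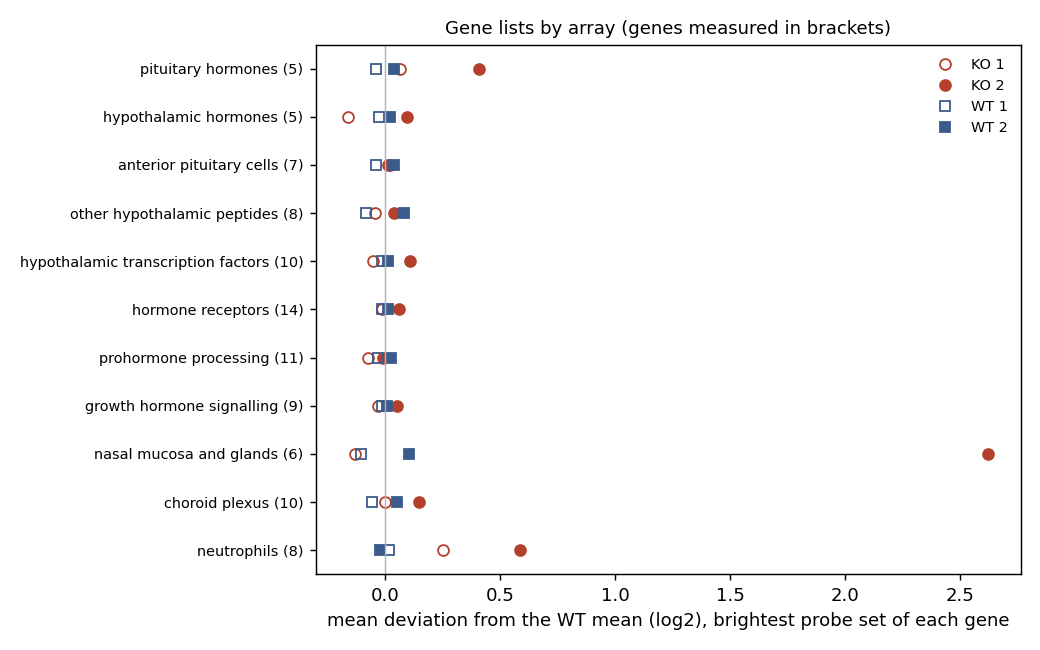
Mean deviation from the wild-type mean (log2) of each gene list in the knockout (KO, circles) and wild-type (WT, squares) arrays, with the number of measured genes in brackets and each gene at its brightest probe set. The second knockout mouse stands apart at 2.62 for the nasal list, 0.59 for neutrophils and 0.41 for the pituitary hormones, and lies at 0.014 for the other anterior pituitary genes.

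The genes closest to Gh were sought among probe sets of 1 gene with an array range of at least 0.5, hormone genes left out. Prl, Pomc and the other hormone genes therefore could not appear among the closest. Closeness was the Euclidean distance between profiles over the 4 arrays after each was centred. There were 1859 such probe sets, and the closest 5 genes were Obp2a, Bpifb3, Lcn11, Pon1 and Sec14l3. Their distances from Gh were 0.55, 0.56, 0.57, 0.58 and 0.77, where the Gh profile itself spanned 2.56. Lcn11, a lipocalin, measured 4.59 and 6.36 in the knockout mice, against 4.29 and 4.72 in the wild-type mice. The first knockout mouse lay between the wild-type mice for Lcn11, Pon1 and Sec14l3. For Obp2a and Bpifb3, the closest genes, it lay above both, at 4.42 against 4.33 and 4.28, and at 6.26 against 6.09 and 6.16. These margins were small beside that of Gh, which stood 0.69 above its wild-type mean in the first knockout mouse. Pon1, a serum esterase, measured 4.32 and 6.49 in the knockout mice, against 4.25 and 4.37 in the wild-type mice. In each of the 5 the second knockout mouse was highest.

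For the hypothalamic genes the same search used Avp, whose 4 values spanned 0.44, the widest of the 5. The closest genes were Rad9b, Pglyrp1, Samt3, 4930444P10Rik and Krt4, at distances of 0.058 to 0.074. Rad9b, a checkpoint protein, measured 4.41 and 4.92 in the knockout mice, against 4.70 and 4.85 in the wild-type mice. All 5 had levels between 2.97 and 5.63. The minimum range of 0.5 kept out most genes of the hypothalamic lists before the search, and the range of Avp itself lies under it. A likeness over 4 arrays is a description of these arrays.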

How the data were processed

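Total RNA (100 ng per sample) from each brain was biotin-labelled with an Affymetrix kit that primes at the 3' end of transcripts and measured on 1 array per mouse, per the labels' protocols. The authors deposited log2 levels made with RMA, per the submitters' processing notes. No source names the program used or its settings. Values carried 2 decimals and no detection calls, no depth applies to arrays, and their number limits the precision. Of 45101 rows, 64 control probe sets were left out. Genes were named from the supplied platform annotation (34945 probe sets with 1 gene, 932 with several, 9160 unnamed), and no hormone gene shared a probe set.

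The genotypes were compared by lmFit and eBayes of limma 3.58.1 in R 4.3.3, two-sided, adjusted by Benjamini-Hochberg over 45037 probe sets, with 2 residual and 2.74 prior degrees of freedom. The fit was tested on simulated data. Hormone genes and 11 gene lists were chosen with earlier results of these data known. For each list up to 4 genes were named, those with no overlap first, then by the size of the difference. Lists used the brightest probe set of a gene. Each array is a separate mouse per the labels. The alternatives were median centring, repeated quantile normalization, an intensity trend with robust variance, a filter on dim probe sets, a replicate block, other weightings of probe sets and leaving out each array.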

Additional observations from a re-analysis of the deposited data

How the results depend on the processing

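Over all probe sets the 2 calls, both lower in the knockout, became 10 (0 higher) with an intensity trend and robust variance, 1 with only probe sets above the median level and 0 with the mouse number as a replicate block. Leaving out any 1 array gave 0 calls, with 577 to 3504 probe sets at an unadjusted p under 0.05 in limma, against 2054 with the block and 1542 without it. The 0 hormone probe sets called stayed 0 under every alternative run, where the lowest adjusted p in limma was 0.573. Mice of one number deviated together (r = 0.24 across 45037 probe sets), but the labels do not say that the number marks a shared litter or day. The count of 4 hormone probe sets with the knockout above the wild type and no overlap was 4 to 13 without 1 array. It was 13 without the first knockout mouse, 4 without the second and 7 without the second wild-type mouse. These alternatives were chosen after seeing the data. Over all probe sets the condition held for 38.6% without the first knockout mouse and 29.4% without the second, against 13.9% with all arrays. The share without a wild-type mouse was not computed. The pituitary mean of 0.42 was 0.77 with every probe set weighted equally, 0.24 with the brightest probe set of each gene, 0.14 without Gh (chosen after seeing the data), and 0.13 to 0.71 without 1 array; the hypothalamic mean of -0.032 was -0.16 to 0.096. Signs turned in 9 of 120 refits of single probe sets. Without 1 array, the lowest and highest values, which came from leaving out the 2 knockout mice in turn, were -0.36 and 0.080 for Avp, -0.21 and 0.18 for Hcrt, -0.17 and 0.14 for Trh, -0.035 and 0.15 for Cga, -0.030 and 0.17 for Lhb, -0.035 and 0.095 for Oxt, and -0.0050 and 0.22 for the brighter Pomc probe set, 1433800_a_at. Hcrt was also 0.020 without the second wild-type mouse, and Trh was 0.00063 after repeated quantile normalization. The causes were not tested. With the filter on dim probe sets, the dim Gh, Prl, Cga and Lhb probe sets had no value.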

Other observations

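On the array of the second knockout mouse 28 probe sets measured at least 1 log2 unit above each of the other 3 arrays, against 0 for the first knockout mouse, 1 for the first wild-type mouse and 0 for the second wild-type mouse. Of the 28, 3 were Gh probe sets. The examples were picked with their values in view. Bpifb9b, a secreted protein of the BPI fold family, stood highest with 3.07 and 9.17 in the knockout mice, against 3.09 and 3.30 in the wild-type mice. Umodl1 measured 4.21 and 6.44 in the knockout mice, against 4.67 and 4.75 in the wild-type mice, and Cbr2, a carbonyl reductase, 6.06 and 7.38 in the knockout mice, against 5.80 and 6.24 in the wild-type mice. None of the other hormone genes, Prl, Pomc, Cga and Lhb included, was among the 28.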
